A study of Mus musculus with 12 samples.

Results

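The 8 genes described here encode enzymes of cholesterol synthesis (Hmgcs1, Idi1, Fdps, Fdft1, Sqle, Lss and Cyp51) and a regulator of the same pathway (Insig1). They were chosen because an earlier look at these arrays had shown them to be high on 1 control array, control replicate 5, and to vary together. Every probe set that the array's annotation gives to exactly 1 of these symbols was taken, which gave 21 probe sets of the 45101 on the array. Of these, 16 were bright enough to be compared between genotypes, among 27022 tested in all. All 8 genes kept at least 1 tested probe set. The values on control replicate 5 and the co-variation of the genes therefore chose them, and both are given as description. Control replicate 5 is part of the control group, so the genotype difference of each tested probe set is also given without it.

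Total RNA came from primary mammary epithelial cells of female FVB/N mice, and each of the 12 arrays is labelled as a biological replicate. Mice of the control group (6 arrays) carried the MMTV-rtTA transgene alone, in which the mouse mammary tumour virus promoter drives the doxycycline-dependent activator rtTA in mammary epithelium. Mice of the p190B group (6 arrays) carried MMTV-rtTA together with TetO-p190B-IRES-luciferase, so that doxycycline switches on p190B, a RhoGAP encoded by Arhgap5, and luciferase. Mice of both groups began a diet with doxycycline (2 g/kg) at 5 weeks of age and stayed on it for 7 days before isolation at 6 weeks, so the activator and the drug are common to both. The labels do not say how many mice went into an array. The values are intensities on a linear scale. Differences and levels on the log2 scale are of intensity + 16.

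Cholesterol is built from acetyl-CoA through mevalonate, isoprenoid pyrophosphates, squalene and lanosterol. The genes of the pathway share a switch: when sterols in the endoplasmic reticulum run low, SREBP transcription factors are carried to the Golgi by Scap, are cleaved there and enter the nucleus, where they bind sterol response elements, often next to sites for NF-Y or Sp1. Insig1 holds Scap back when sterols are plentiful and is itself a target of the switch, and the mammary gland is known for the lipid synthesis that goes into milk.

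Promoter sequence was available for 5 of the 8 genes (Hmgcs1, Idi1, Lss, Cyp51 and Insig1) as RefSeq windows of the mouse build GRCm38.p6. The 250 bases before the annotated start are shown for the 4 genes whose intensities moved together most closely across the arrays, so that the motifs of the shared switch can be seen. Each is written 5′ to 3′ on the gene's own strand. Capitals mark a sterol response element form (TCACNCCAC, or the shorter and looser TCACNNCA), the NF-Y motif CCAAT, which reads ATTGG on the other strand, or the E-box CACGTG. The Hmgcs1 window is chr13:119690101-119690350 (plus strand), Idi1 is chr13:8885356-8885605 (plus strand), Cyp51 is chr5:4104698-4104947 (minus strand) and Insig1 is chr5:28071162-28071411 (plus strand).
Hmgcs1: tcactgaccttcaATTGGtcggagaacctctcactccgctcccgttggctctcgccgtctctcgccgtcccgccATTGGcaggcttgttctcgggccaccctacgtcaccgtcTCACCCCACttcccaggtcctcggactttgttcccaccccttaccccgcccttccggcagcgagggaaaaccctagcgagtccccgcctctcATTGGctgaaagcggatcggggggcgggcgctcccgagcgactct
Idi1: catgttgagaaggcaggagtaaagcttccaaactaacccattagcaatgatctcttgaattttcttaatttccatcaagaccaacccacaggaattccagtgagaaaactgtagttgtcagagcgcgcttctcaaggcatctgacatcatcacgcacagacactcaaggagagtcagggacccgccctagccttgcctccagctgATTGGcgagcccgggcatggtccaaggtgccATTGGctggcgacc
Cyp51: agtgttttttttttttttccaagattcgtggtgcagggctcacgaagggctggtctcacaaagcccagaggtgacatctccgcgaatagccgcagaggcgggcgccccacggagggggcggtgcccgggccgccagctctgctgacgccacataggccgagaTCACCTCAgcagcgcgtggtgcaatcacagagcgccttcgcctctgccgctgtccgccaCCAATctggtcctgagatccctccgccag
Insig1: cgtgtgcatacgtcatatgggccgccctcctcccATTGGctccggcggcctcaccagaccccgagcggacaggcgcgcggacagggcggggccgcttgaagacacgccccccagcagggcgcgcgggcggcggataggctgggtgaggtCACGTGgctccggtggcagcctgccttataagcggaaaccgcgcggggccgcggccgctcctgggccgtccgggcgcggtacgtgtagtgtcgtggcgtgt

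The Hmgcs1 window held TCACNCCAC, as TCACCCCAC beginning 137 bases before the start, and 3 NF-Y motifs that begin 237, 176 and 45 bases before it. TCACNCCAC was in 1 of the 5 windows and in 1.05% of all 32851 windows of that length. The longer form that has an A directly before TCACCCCAC was searched as well, and was in 0 of the 5 and 0.0731% of all. The looser form TCACNNCA, which was added after the windows had been read and overlaps the Hmgcs1 match, was in 2 of the 5 windows and 11.4% of all. In Cyp51 it read TCACCTCA, 88 bases before the start.

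The NF-Y motif was in all 5 windows, against 33.8% of all windows. It lay 45 and 14 bases before the start of Idi1, 29 before Cyp51, 216 before Insig1 and 62 before Lss. The Sp1 motif GGGCGG, not in capitals above, was also in all 5, against 32.7% of all windows. CACGTG was in 1 of the 5, Insig1, beginning 101 bases before the start, and in 6.02% of all windows. Motifs were searched on both strands, and a match of letters is a description of the window and not evidence that a factor binds it.

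Before the genes are compared, the transgene's own gene was read as a check of the labels. None of the 4 Arhgap5 probe sets passed the test. Their log2 differences, p190B minus control, were 0.41, -0.32, -0.14 and 0.10, with limma adjusted p of 0.258, 0.491, 0.710 and 0.925. Of the markers of the labelled cell type, 8 of 8 luminal and 7 of 7 basal epithelial genes were measured, at mean log2 levels of 13.94 to 14.35 and 12.03 to 12.52 over the arrays. Markers of other cells were measured as well, with fibroblast markers (8 of 8) at 13.57 to 14.16 and macrophage markers (10 of 10) at 11.71 to 12.36, besides those of endothelium, adipocytes and lymphocytes. No marker was at 0 on any array, but only markers bright enough on average to be tested were kept. On single arrays some were dim, down to 14.3 units for Cd3d of the T and NK list. The lowest values were 23.3 for Cr2 of the B cell list and 71.0 for Cidec of the adipocyte list. Levels of different probe sets do not give the proportions of these cells. In RNA from such a mixture of cells, fewer cells of a type and less RNA per cell cannot be told apart.

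No cholesterol synthesis gene passed the test between genotypes. With limma and Benjamini-Hochberg adjustment over all 27022 probe sets at 0.05, 0 of the 16 member probe sets were called, and 10 of all probe sets were (0.037%). At an unadjusted p under 0.05, 1 of the 16 passed, against 9.32% of all. In no member did the 2 genotypes separate without overlap, which 0.877% of all probe sets did. By mean, 11 of the 16 were lower in p190B cells and 5 higher, and 45.1% of all tested probe sets were lower. The median log2 difference was -0.08 over the 16 probe sets, -0.05 over the 8 genes each read by its brightest probe set, and 0.02 over all tested probe sets.

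**Figure D1:**
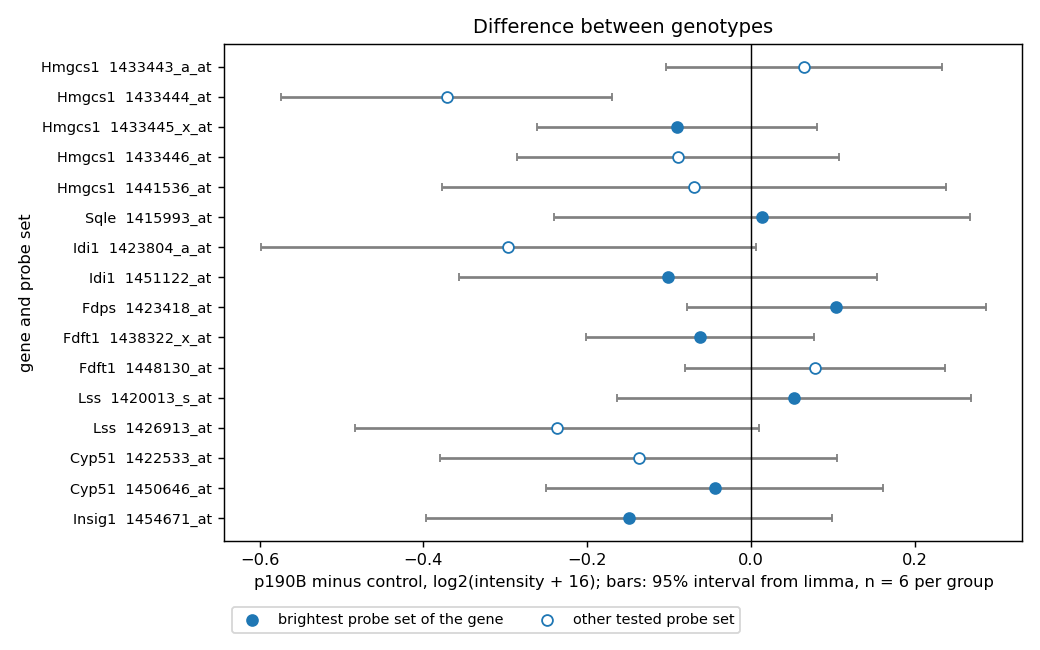
Log2 difference (p190B minus control, intensity + 16) of the 16 tested probe sets, with 95% intervals from limma, 6 arrays per group; filled points are the brightest probe set of each gene. The interval of Hmgcs1 1433444_at, from -0.57 to -0.17, lies below 0, and the intervals of the other 15 cross 0.

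Hmgcs1 makes HMG-CoA, the precursor of mevalonate, and was read by 5 tested probe sets. On 1433444_at the control arrays ran from 6300.4 through a median of 6526 to 8850.0, and the p190B arrays from 4599 through 5297 to 6348. The highest array was control replicate 5, and 5 of the 6 p190B arrays lay below every control array, the exception being p190B replicate 4. The means were 6951 ± 970.3 in control and 5361 ± 637 in p190B cells (SD, n = 6 each). They differed by -0.37 on the log2 scale (SE 0.09, 95% interval -0.57 to -0.17). Its unadjusted p in limma was 0.00145 and its adjusted p 0.210, so it was not called. Without control replicate 5 the difference was -0.30 (limma adjusted p = 0.374).

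The other Hmgcs1 probe sets gave smaller differences. On 1433445_x_at, the brightest, the controls ran from 6587 through 7341 to 8904 and the p190B arrays from 6545 through 6909.8 to 7745. Control replicates 5, 4 and 3 lay above every p190B array, and the other controls lay within the p190B range. The log2 difference was -0.09 (95% interval -0.26 to 0.08; limma adjusted p = 0.780), and -0.04 without control replicate 5. 1433446_at also gave -0.09 (adjusted p = 0.822), from 1609 to 2123 in controls and 1495 to 1955 in p190B cells, and -0.04 without that array. 1433443_a_at was higher by mean in p190B cells, by 0.06 (95% interval -0.10 to 0.23; adjusted p = 0.861), with 4723 to 6483 in controls and 5395 to 6214 in p190B cells, and by 0.09 without control replicate 5. The dim 1441536_at ran from 128 to 208 in controls and from 108 to 169.8 in p190B cells, with control replicate 1 highest and a difference of -0.07 (adjusted p = 0.930), the same to 2 decimals without control replicate 5.

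The disagreement between Hmgcs1 probe sets can also be read within each array. The log2 intensity of 1433444_at minus that of 1433443_a_at was 0.34 ± 0.21 in control and -0.09 ± 0.16 in p190B cells (SD, n = 6 each). It ran from -0.04 to 0.55 in controls and from -0.32 to 0.05 in p190B cells. All p190B arrays lay below 5 of the 6 controls, and the groups overlapped only through control replicate 4. The pair of probe sets was picked after its values were seen, so no test is given. Across the 12 arrays these 2 probe sets of 1 gene correlated at r = 0.03, while 1433445_x_at and 1433446_at correlated at 0.81. The array's 3′ over 5′ ratio, a measure of how complete the RNA is, tended to be higher in p190B cells. The log2 ratio for Gapdh ran from -0.52 to -0.47 in controls and from -0.48 to -0.32 in p190B cells, and for Actb from 0.25 to 0.35 and from 0.31 to 0.59. p190B replicates 1 and 3, the lowest on 1433444_at at 4598.6 and 4855.0, had the highest Actb ratios, 0.48 and 0.59. Control replicate 4, with a probe set difference of -0.04, had ratios within those of the other controls, -0.48 for Gapdh and 0.28 for Actb. p190B replicate 5, with a difference of -0.07, had a Gapdh ratio within the control range, -0.48, and an Actb ratio of 0.35. When the Gapdh ratio was added as covariate, the 1433444_at difference was -0.25 (limma adjusted p = 0.751), and without p190B replicates 1 and 3 it was -0.28 (0.308). The part of RNA integrity in the difference was not tested.

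Idi1 interconverts the isoprenoid units isopentenyl and dimethylallyl pyrophosphate. On its brightest probe set, 1451122_at, controls ran from 1810.1 through 2126 to 3000.2 and p190B arrays from 1728 through 2078 to 2430.4. The highest array was control replicate 5, followed by control replicate 4, and p190B replicate 1 was the lowest. The log2 difference was -0.10 (SE 0.12, 95% interval -0.36 to 0.15; limma adjusted p = 0.853) and -0.01 without control replicate 5. On 1423804_a_at controls ran from 851 through 1054 to 1573 and p190B arrays from 685 through 935 to 984. All 6 p190B arrays were below the control median, but only p190B replicate 1 was below every control, and the difference of -0.30 (SE 0.14, 95% interval -0.60 to 0.01) was not called (limma adjusted p = 0.548). Without control replicate 5 it was -0.19. The 2 probe sets varied together from array to array (r = 0.92 over 12 arrays, 0.84 without control replicate 5).

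Fdps makes farnesyl pyrophosphate, where the sterol and prenylation branches part. It was the gene with the largest mean difference towards p190B among the brightest probe sets, and it too did not pass. Controls ran from 2045 through 2223 to 2602 and p190B arrays from 1951 through 2449 to 2767 on 1423418_at. Of the p190B arrays, 5 of 6 were above the control median, 2 were above every control, and replicate 1 was below every control. The log2 difference was 0.10 (SE 0.09, 95% interval -0.08 to 0.29; limma adjusted p = 0.757), and 0.15 without control replicate 5.

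Fdft1, squalene synthase, commits farnesyl pyrophosphate to sterols. Its brightest probe set, 1438322_x_at, ran from 2573 through 2921 to 3264 in controls and from 2667 through 2803 to 2895 in p190B cells, with all p190B arrays below the control median and within the control range. The difference was -0.06 (95% interval -0.20 to 0.08; limma adjusted p = 0.827), and -0.04 without control replicate 5. The other tested probe set, 1448130_at, differed the other way, by 0.08 (95% interval -0.08 to 0.24; adjusted p = 0.80), with 1881 to 2202 in controls and 1926 to 2482 in p190B cells, and by 0.07 without that array. The 2 did not vary together (r = -0.14 over 12 arrays). By the brightest probe sets, Fdft1 was also the gene with the smallest excess on control replicate 5, 0.14 against the mean of the other controls. On 1448130_at that array showed no excess, at -0.05.

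Sqle, squalene epoxidase, carries out the oxygen-dependent step after squalene and is a control point of the pathway. Its single probe set ran from 1942 through 2296 to 2763 in controls and from 1856 through 2246 to 2816 in p190B cells. High and low arrays occurred in both groups: control replicates 2, 5 and 6 (2562.7, 2676.1 and 2763.4) and p190B replicates 1 and 3 (2718.9 and 2816.1) were high, and the other 7 arrays were between 1856.2 and 2257.9. The genotype means, 2332 ± 374 and 2352 ± 356 (SD, n = 6 each), differed by 0.01 on the log2 scale (SE 0.12, 95% interval -0.24 to 0.27; limma adjusted p = 0.985), and by 0.06 without control replicate 5. Its sign was negative under 8 of 23 other settings of the analysis.

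Lss closes the squalene epoxide into lanosterol, the first sterol. Its 2 tested probe sets were dim and disagreed. 1420013_s_at ran from 288 through 305 to 386 in controls and from 284 through 333 to 366 in p190B cells, a difference of 0.05 (95% interval -0.16 to 0.27; limma adjusted p = 0.925) that was 0.11 without control replicate 5. 1426913_at ran from 226 through 246 to 331 in controls and from 191 through 208 to 249 in p190B cells. There, 4 of 6 p190B arrays lay below every control, and the difference was -0.24 (SE 0.12, 95% interval -0.48 to 0.01; adjusted p = 0.559). On both probe sets the highest array was control replicate 5. Without that array the 1426913_at difference was -0.17 (adjusted p = 0.764).

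Cyp51 removes a methyl group from lanosterol. On 1450646_at controls ran from 910.0 through 1134 to 1362, while all p190B arrays lay between 1060.5 and 1129.8 with a median of 1084. The means were 1136 ± 179 and 1090.4 ± 23.3 (SD, n = 6 each), so the p190B arrays fell inside the control range and differed far less among themselves. The log2 difference was -0.04 (95% interval -0.25 to 0.16; limma adjusted p = 0.935) and 0.01 without control replicate 5. 1422533_at gave 506 to 751 in controls and 467 to 639.5 in p190B cells, a difference of -0.14 (95% interval -0.38 to 0.11; adjusted p = 0.759) that was -0.06 without control replicate 5.

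Insig1, the brake on the SREBP switch, ran from 1222 through 1816 to 2088 in controls and from 1433 through 1524 to 1627 in p190B cells on 1454671_at. Here control replicate 4 was the highest array and replicate 5 the next (1940.0), and control replicate 6 was the lowest. All 6 p190B arrays were below the control median and none was below every control. The means of 1716 ± 330.5 and 1523 ± 80.4 (SD, n = 6 each) differed by -0.15 on the log2 scale (SE 0.12, 95% interval -0.40 to 0.10; limma adjusted p = 0.744), and by -0.11 without control replicate 5.

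The remaining 5 probe sets, 1 of Fdps, 2 of Fdft1, 1 of Lss and 1 of Cyp51, were too dim to be tested, with a highest value of 126 intensity units on any array. The Fdps one, 1438150_at, stayed between 1.2 and 34.5 units.

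**Figure D2:**
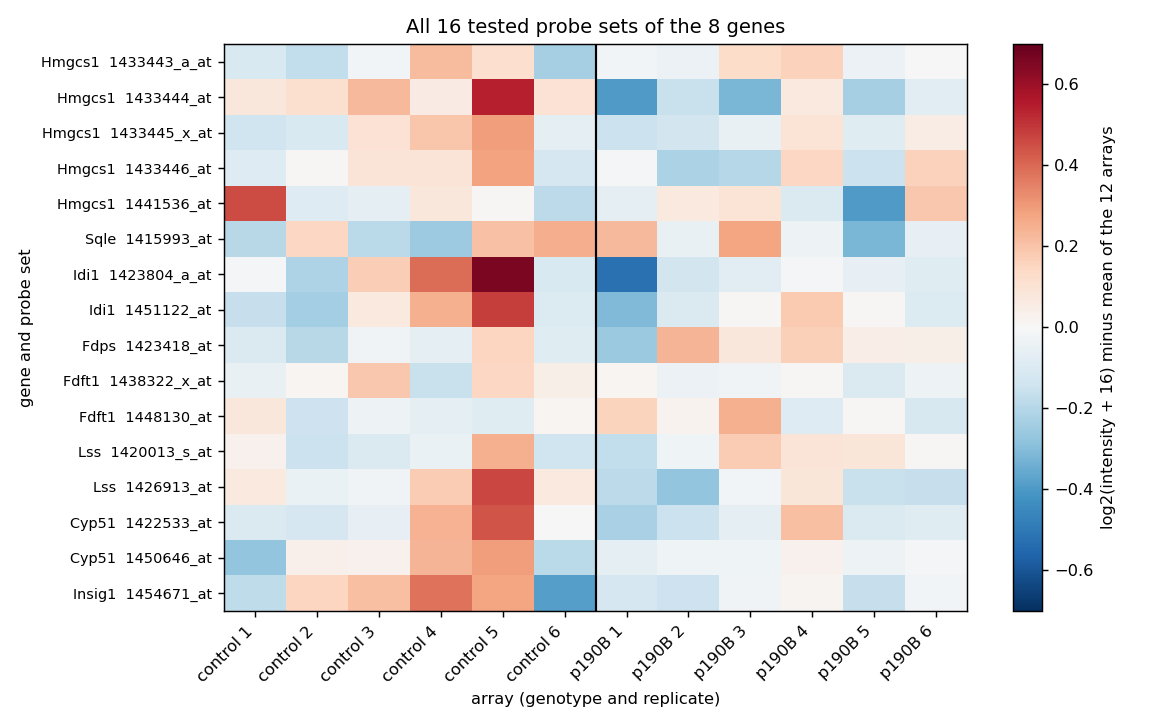
Each of the 16 tested probe sets (rows) on each of the 12 arrays (columns), as log2 intensity + 16 minus the mean of that probe set over the arrays; red is above and blue below that mean, and the black line parts the genotypes. The column of control replicate 5 is red in most rows, and Hmgcs1 1433444_at is blue on 5 of the 6 p190B arrays.

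The spread among arrays was smaller in p190B cells for most members. Read by the brightest probe set, the SD of log2 intensity was lower in p190B than in control cells for 7 of 8 genes, with Fdps the exception. Over all tested probe sets it was lower in p190B cells for 44.3%. The SD in p190B cells was 0.03 for Cyp51 against 0.23 in controls, 0.04 for Fdft1 against 0.13, and 0.08 for Insig1 against 0.29. Without control replicate 5 the p190B SD was lower for 6 of 8 genes (44.2% over all probe sets), and the SDs of the controls were 0.20 for Cyp51, 0.13 for Fdft1 and 0.31 for Insig1. Over all 16 member probe sets the count was 13 with and 9 without that array. This pattern was noticed in the data and was not tested.

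Control replicate 5 was the highest control array on 10 of the 16 probe sets (17.1% of all tested probe sets had it highest) and the highest of all 12 arrays on 9 (8.3% of all). These counts describe how the genes were chosen. It was first or second among the controls on 14 of the 16, and control replicate 4 on 9. Averaged over the 8 genes, control replicate 5 lay 0.26 log2 units above the mean of the 12 arrays. The other controls lay at -0.13, -0.04, 0.03, 0.07 and -0.08 (replicates 1, 2, 3, 4 and 6). The p190B arrays lay at -0.10, -0.04, 0.05, 0.07, -0.07 and -0.01. Only on control replicate 5 were all 8 genes above their own means, and p190B replicate 4 came next with 7.

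The size of the excess on control replicate 5 differed among the genes. Against the mean of the other 5 controls it was 0.52 on the log2 scale for Idi1, 0.33 for Lss, 0.33 for Cyp51, 0.30 for Hmgcs1, 0.25 for Sqle, 0.24 for Fdps, 0.24 for Insig1 and 0.14 for Fdft1. The largest on any tested probe set was 0.61 for Idi1 1423804_a_at, where 1573.4 units stood 1.52-fold above the mean of the other controls. For Insig1 the excess was smaller than the SD of the other 5 controls, 0.31. For Sqle and Fdft1 it was about equal to that SD, 0.23 and 0.13. For Lss and Fdps it was several times that SD, 0.08 and 0.06. The mean excess over the 8 genes was 0.29. With all controls, the mean of the 8 genes was 0.02 ± 0.14 in control and -0.02 ± 0.07 in p190B cells (SD, n = 6 each), a difference of -0.03. Without control replicate 5 that difference was 0.01.

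**Figure D3:**
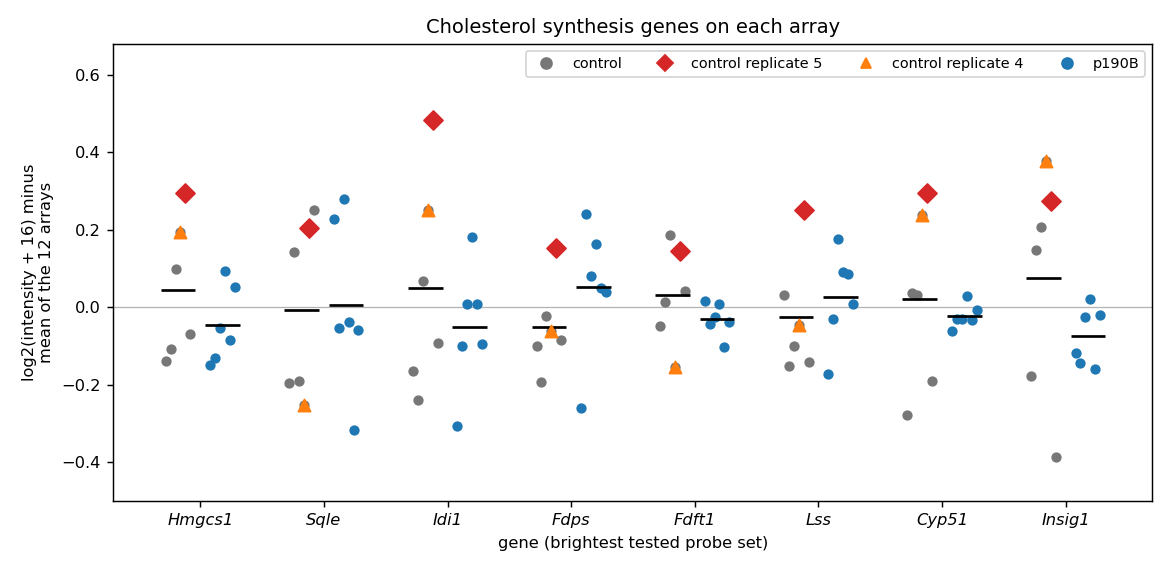
Each array's log2 intensity + 16 for the brightest probe set of each gene, as the deviation from the mean of the 12 arrays; bars are the genotype means of 6 arrays each. Control replicate 5 (red diamonds) is above 0 for all 8 genes and the highest array for Hmgcs1, Idi1, Lss and Cyp51, while control replicate 4 (orange triangles) is high for Hmgcs1, Idi1, Cyp51 and Insig1 and below 0 for the rest.

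Other RNA on control replicate 5 also differed from that on the other controls. Its adipocyte markers (7 of 10 measured) were the highest of the controls, with a mean log2 level of 11.07 against 9.96 to 10.94, and p190B arrays from 10.22 to 10.99. Their summed intensity was 68694.7 on that array and 55431.6 to 73041.0 over the controls. Its lymphocyte markers were the lowest of the controls: 7.49 against 8.43 to 10.11 for T and NK cells (9 of 10 measured) and 6.27 against 7.19 to 9.79 for B cells (6 of 8 measured). Those of p190B replicate 1 were lower still, at 7.04 and 6.11. Macrophage markers (10 of 10) were also lowest on it, 11.71 against 11.82 to 12.36. Its 3′ over 5′ ratios were not raised, with -0.49 for Gapdh and 0.25 for Actb. p190B replicate 3 had adipocyte markers nearly as high (10.99) and T and NK markers low, with a mean of the 8 genes of 0.05. The part of cell composition in the excess was not tested.

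The 8 genes did not vary as 1 block. Over the 28 pairs of genes the median Pearson r across the 12 arrays was 0.30 (from -0.19 to 0.91), and 9 pairs were above 0.5. Over all pairs of 12770 tested genes the median was 0.01 and 9.53% were above 0.5, against 32.1% of the member pairs. These points share the arrays, their scaling and their mix of cells, so the values are given with no p. Leaving out control replicate 5 took the median to -0.01, with 8 pairs still above 0.5 (28.6%, against 10.7% of all pairs). With each genotype centred on its own mean the median was 0.34. Within the 6 control arrays it was 0.42 and within the 6 p190B arrays, which do not include control replicate 5, it was 0.46.

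Hmgcs1, Idi1, Cyp51 and Insig1 gave positive r in each of the 6 sets of arrays compared. This grouping was picked after the values were seen. Their 6 pairs ran from 0.61 to 0.91 over 12 arrays, from 0.51 to 0.85 without control replicate 5, and from 0.23 to 0.76 without control replicates 4 and 5. Within genotypes they ran from 0.61 to 0.98 among the controls and from 0.54 to 0.92 among the p190B arrays. The pairs among Hmgcs1, Idi1, Fdps and Lss were also positive in each set, from 0.37 to 0.91 over 12 arrays. A positive r in every set was therefore not particular to the first group of 4. Hmgcs1 and Idi1 were the closest pair at 0.91, followed by Cyp51 and Insig1 at 0.86. Lss and Fdps were at 0.70, and at 0.66 without control replicate 5. Idi1 also followed both, with 0.68 for Lss and 0.58 for Fdps over 12 arrays, beside its 0.61 with Insig1. Without control replicates 4 and 5, Idi1 had 0.62 with Lss and 0.72 with Fdps. It had 0.76 with Hmgcs1, 0.33 with Cyp51 and 0.23 with Insig1 there. Lss was read here by the dim 1420013_s_at, whose r with the other tested Lss probe set was 0.49, and 0.09 without control replicate 5. The NF-Y and Sp1 motifs were in all 5 windows available, those of the first group and of Lss. Sqle, Fdps and Fdft1 had no window, so the motifs cannot be set against the grouping.

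Sqle and, less so, Fdft1 stood apart. The r of Sqle with the other 7 genes ran from -0.19 to 0.40 over 12 arrays, and from -0.49 to 0.30 without control replicate 5. That of Fdft1 ran from 0.01 to 0.40 and from -0.39 to 0.30. Against the mean of the other 7, Sqle had -0.08, where Hmgcs1 had 0.85, Idi1 0.83, Cyp51 0.79, Insig1 0.55, Lss 0.54, Fdps 0.39 and Fdft1 0.29. Without control replicate 5, Sqle had -0.44 and Fdft1 -0.12. Among these 7 the highest r of Sqle was with Fdft1, the enzyme of the step before it, and it was 0.13 without control replicates 4 and 5. The 2 tested probe sets of Fdft1 did not vary together. Among the genes of the pathway lists, Acaca of fatty acid synthesis had the highest r with Sqle, 0.71. It was picked here after its r was seen.

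**Figure D4:**
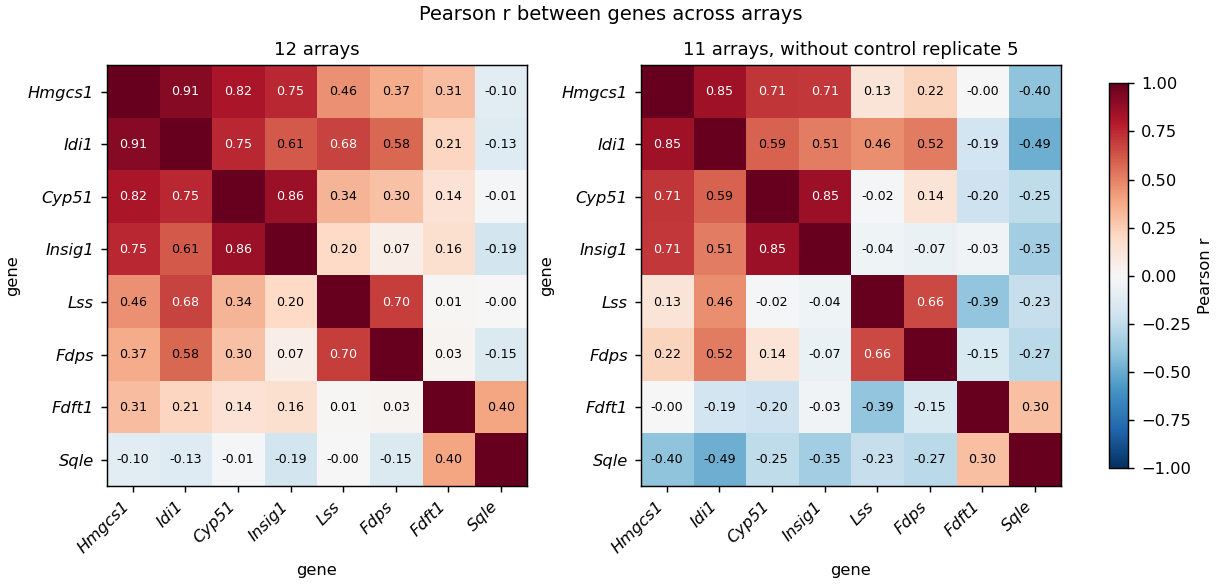
Pearson r between the 8 genes (brightest probe sets, log2 intensity + 16), over all 12 arrays on the left and over the 11 arrays without control replicate 5 on the right. The dark block of Hmgcs1, Idi1, Cyp51 and Insig1 (0.61 to 0.91 on the left) stays between 0.51 and 0.85 on the right. The Sqle and Fdft1 rows turn towards negative values there, apart from their 0.30 with each other.

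The members also differed in the cell markers they followed from array to array. For Sqle, r with the mean of the luminal epithelial markers was 0.72 (Spearman's rho 0.65) over 12 arrays and 0.84 without control replicate 5. With T and NK markers it was -0.70 (rho -0.54) and with B cell markers -0.77 (rho -0.71). Hmgcs1 had the opposite sign with luminal markers, -0.51 (rho -0.35), and followed endothelial markers at 0.69 (rho 0.67), as did Idi1 at 0.65 (rho 0.60). Without control replicate 5 the endothelial values were 0.71 for Hmgcs1 and 0.68 for Idi1. Idi1 then had a higher r with B cell markers, 0.79 (0.19 over 12 arrays), and with T and NK markers, 0.72 (0.20). Its r with basal markers was then -0.77 (-0.66 over 12 arrays). Hmgcs1 then had 0.55 with B cell markers (0.08 over 12 arrays). Fdps followed the cell cycle list at 0.80 (rho 0.65). These are descriptions of 12 arrays, chosen from 112 pairs of a gene and a list, and no p is given. The part of cell composition in the Sqle pattern was not tested.

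The other genes of the pathway were read from lists, each gene by its brightest probe set. Of 13 other cholesterol enzymes, 10 were measured. None was called by limma, 9 were higher by mean in p190B cells and 1 lower, and the median log2 difference was 0.12 (0.03 over all 12770 genes read the same way). Of all 12770 genes, 7619 were higher and 5151 lower by mean, which is the background for the counts of each pathway list. The 6 with the highest level were Ebp, Msmo1, Nsdhl, Sc5d, Pmvk and Hsd17b7. Hsd17b7, which reduces a sterol ketone, averaged 610 ± 53.3 in control and 717 ± 78.1 in p190B cells, a difference of 0.22 (limma adjusted p = 0.476). Ebp, a sterol isomerase, differed by 0.17 (4459 ± 216 and 5049.6 ± 781; adjusted p = 0.595) and Pmvk, phosphomevalonate kinase, by 0.16 (0.623). Sc5d, a sterol desaturase, differed by 0.09 (0.756) and Nsdhl, which acts with Msmo1 in removing methyl groups, by 0.04 (0.904). The 1 enzyme lower by mean was Msmo1, the enzyme that acts soon after Cyp51, at -0.05 (0.916).

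Among the controls, replicate 5 was highest for 2 of the 10 (16.7% of all genes), the median excess was 0.17, and for Sc5d it was the lowest control (1334.0 against 1352.1 to 1510.5). Msmo1 was the enzyme outside the 8 that followed them most closely, with r = 0.76 against their mean over 12 arrays and 0.77 without control replicate 5, and 0.84 against Hmgcs1. It was picked here after its r was seen.

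Genes of sterol sensing and uptake showed no called difference either. Of 16, 13 were measured, of which 9 were higher and 4 lower by mean, with a median of 0.09. Of all 12770 genes, 7619 were higher, with a median of 0.03. Srebf1, which encodes an SREBP, averaged 3746 ± 611 in control and 3969.6 ± 948 in p190B cells (difference 0.06; limma adjusted p = 0.941). Scap, the SREBP escort, differed by 0.12 (0.811), the protease gene Mbtps1 by 0.01 (0.988), and Insig2, the second Insig, by -0.03 (0.942). Scarb1, a lipoprotein receptor, differed by 0.10 (0.842). Npc2, which hands cholesterol out of lysosomes, had the lowest adjusted p of the list, 0.387, at 18069.8 ± 1673 and 21274 ± 2285 (difference 0.23). Replicate 5 was the highest control for none of the 13, and for Npc2 it was the lowest of all arrays at 15737.7.

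Of 10 genes of sterol efflux and the sterol-activated receptor LXR, 8 were measured, 4 higher and 4 lower by mean, with none called and a median of 0.02. Control replicate 5 was the lowest control for 5 of the 8, among them Apoe (21168.9 against 22277.1 to 27025.9), the exporters Abca1 (10809.0 against 11711.2 to 14171.5) and Abcg1 (1425.1 against 1662.0 to 2529.5), and Ch25h, which makes 25-hydroxycholesterol (1842.5 against 2214.9 to 3597.6). Mylip, which degrades lipoprotein receptors, and Lpcat3, a phospholipid enzyme, lay within the other controls there. The median excess was -0.25. Macrophages express several of these genes strongly, and their markers were lowest on the same array; their part in these values was not tested. Between genotypes the log2 differences of the named genes were 0.08 for Apoe, -0.06 for Abca1, -0.12 for Mylip, -0.04 for Lpcat3, -0.31 for Ch25h and 0.17 for Abcg1, with limma adjusted p from 0.703 to 0.939.

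Of 8 genes of the isoprenoid branch that leads away from sterols, 7 were measured, 4 higher and 3 lower by mean, with none called and a median of 0.01. Fnta, a subunit of farnesyltransferase, gave 9025.5 ± 349.9 in control and 9111 ± 210.0 in p190B cells (difference 0.01; limma adjusted p = 0.957). Ggps1, which makes geranylgeranyl pyrophosphate, differed by -0.16 (0.545), and Rabggtb, Pggt1b, Dhdds and Fntb by 0.05, -0.03, -0.06 and 0.03. Replicate 5 was the highest control for 2 of the 7.

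Fatty acid synthesis, the other arm of SREBP control, was measured by all 15 genes of its list. Of these 7 were higher and 8 lower by mean, with none called and a median of -0.03. Control replicate 5 was the highest control for 7 of the 15 and the highest of all 12 arrays for 5. Fasn, fatty acid synthase, stood at 4674.7 there against 2911.7 to 3523.3 on the other controls and 2860.0 to 4234.5 in p190B cells. The desaturase gene Scd2 stood at 11853.2 against 6402.0 to 10116.6, whereas its relative Scd1 was within the others at 18072.1. Between genotypes Fasn differed by -0.05 (limma adjusted p = 0.945), Scd2 by -0.25 (0.546) and Scd1 by -0.06 (0.910). Acly, which supplies acetyl-CoA to both pathways, differed by 0.17 (7204 ± 326 and 8137 ± 748; 0.431), Me1 by 0.14 and the elongase gene Elovl5 by -0.03. Adipocytes express Fasn and the Scd genes strongly, and adipocyte markers were highest of the controls on the same array; their part in these values was not tested.

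**Figure D5:**
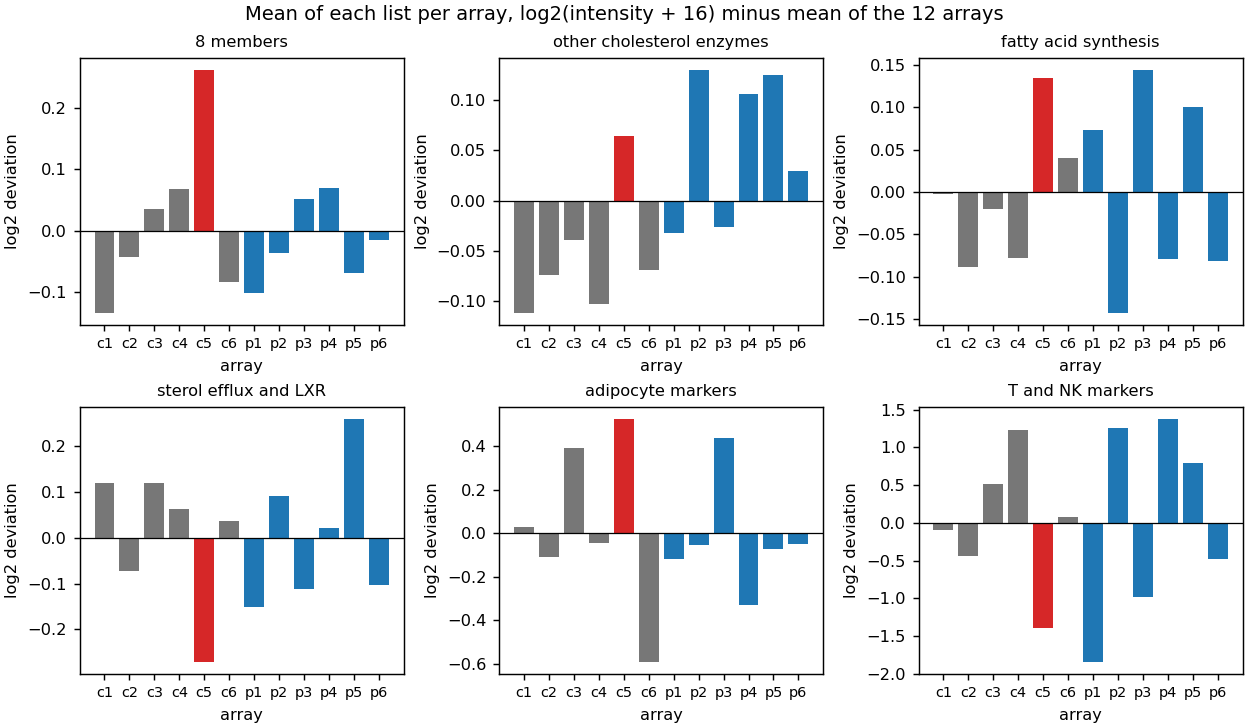
Mean of each gene list on each array, as log2 intensity + 16 minus the mean of the 12 arrays (c, control replicates 1 to 6 in grey with replicate 5 in red; p, p190B replicates 1 to 6 in blue; vertical scales differ between panels). On control replicate 5 the 8 genes stand at 0.26, adipocyte markers at 0.52, and T and NK markers at -1.39.

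All genes outside the 8, other sterol genes included, were compared with the mean of the 8, and the 10 closest were in none of the pathway lists. Msmo1, the closest of the other cholesterol enzymes, ranked 31 by r over the 12 arrays and 43 without control replicate 5. Of 12762 genes compared, 13 had r above 0.8 over the 12 arrays, and the median was 0.00. Cdo1, cysteine dioxygenase, led with 0.92 (0.83 without control replicate 5). Next were Prmt3, a protein arginine methyltransferase, at 0.85 (0.66), and the imprinted gene Mest at 0.85 (0.70). Trmt11, which acts in tRNA methylation (0.83), the nucleosome-binding Hmgn5 (0.83), Myh4 (0.83), the zinc finger gene Zfp275 (0.83), the ribosomal protein gene Rpl27a (0.82), Zfp939 (0.82) and Tusc3, of the oligosaccharyltransferase complex (0.82), completed the 10. Without control replicate 5 their r ran from 0.50 for Hmgn5 to 0.87 for Myh4, a skeletal muscle myosin, and 5 of the 10 were among the 100 closest genes.

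For 9 of these 10 genes the highest control was replicate 5, as it was for 16.7% of all genes. The 10 were ranked by r with a mean that was itself highest on that array. The count therefore describes how they were picked. Cdo1 gave 6971.6 on it, against 4139.2 to 5779.1 on the other controls and 4179.0 to 5353.1 in p190B cells. Mest gave 2512.8, against 1108.5 to 1956.4 and 1368.2 to 1877.9. Myh4 was an exception, at 655.7 against 87.0 to 770.1, with control replicate 4 highest. Between genotypes the log2 differences of Cdo1, Mest and Myh4 were -0.07, -0.10 and -0.07, with limma adjusted p of 0.910, 0.900 and 0.982.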

How the data were processed

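Total RNA from mammary epithelial cells was made into biotin-labelled cRNA for Affymetrix arrays of 1 colour, per the labels' protocols. The deposited table holds 1 linear intensity per probe set and array. MAS5 is named in the submitters' processing notes; version and target value are not given in the sources used. The 2% trimmed mean was the same on all 12 arrays to within rounding (1000.0), which shows a common scaling, and medians ranged from 187.6 to 211.5. Arrays can still differ in the shape of their distributions, and dim MAS5 values are noisy. An array has no read depth, and 6 arrays per group limit the precision.

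Intensities were used as log2(value + 16), on which folds of dim genes are understated. Probe sets with a mean log2 value at or above the 40th percentile (about 101 units) were tested, 27022 of 45037 that are not array controls. The genotype test was limma's (version 3.58.1, R 4.3.3), two-sided, with lmFit and a trended eBayes, called at 0.05 after Benjamini-Hochberg adjustment. The limma step was tested on simulated data. Genes were named only from probe sets with 1 symbol in the platform annotation (34945, against 932 with several and 9160 with none). A gene was read by its brightest tested probe set. Correlations, counts and figures were made in Python 3.11.15 with matplotlib 3.10.9.

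The members and the gene lists were chosen with earlier results of these data known. Genes named are all member probe sets, list genes past the threshold and the 6 with the highest level in each pathway list, the 10 genes closest to the member mean, and Arhgap5; others are said to be picked after their values were seen. The labels give no batch. The labels do not say whether arrays with the same replicate number were matched, and the arrays were treated as unpaired. Same-numbered arrays had deviations that correlated between -0.29 and 0.41, which cannot show whether they were matched. The labels call the arrays biological replicates but do not say how mice were assigned to them.

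Other settings tried were pseudocounts of 1 and 64, no filter or the 60th percentile, equal medians, quantile normalisation, eBayes that was untrended or robust, the replicate number as a block, a covariate for the Gapdh 3′ over 5′ ratio, the mean of all probe sets of a gene, and leaving out each array. Leaving out p190B replicates 1 and 3, or control replicates 4 and 5, and the motif TCACNNCA were added after seeing the data.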

Additional observations from a re-analysis of the deposited data

Results flagged for a closer look

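Of 34 groups of 6 values examined, 2 had an array whose gap to its nearest neighbour exceeded the 95% limit of Dixon's test. On Hmgcs1 1433444_at, control replicate 5 stood at 8850.0 against 6300.4 to 7095.9 on the other controls. The genes were chosen for being high on that array, so this gap is a description and no chance rate applies to it. On Idi1 1423804_a_at, p190B replicate 1 stood at 684.9 against 905.7 to 984.2 on the other p190B arrays. Where the values did not choose the genes, chance alone exceeds the limit in about 1 group in 20, and the co-variation that helped choose these genes ran over all 12 arrays.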

How the results depend on the processing

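Over 365 combinations of a member probe set and another setting, 351 kept their direction, 14 reversed and none was called; the lowest limma adjusted p was 0.165, for Hmgcs1 1433444_at with the filter at the 60th percentile. Sqle reversed to -0.016 with equal medians, -0.19 with the Gapdh covariate and -0.11 without p190B replicates 1 and 3, and ran from -0.041 to 0.078 when single arrays were left out. Fdft1 1448130_at reversed to -0.057 with the Gapdh covariate and -0.0034 without p190B replicates 1 and 3, Idi1 1451122_at to 0.015 with the Gapdh covariate, Cyp51 1450646_at to 0.010 without control replicate 5 (from -0.104 to 0.010 when single arrays were left out), and Hmgcs1 1441536_at to 0.015 without control replicate 1 and 0.0030 without p190B replicate 5 (from -0.11 to 0.015). Of all probe sets, 10 were called (1 higher in p190B cells), against 5 with no filter, 17 with the 60th percentile, 28 with quantile normalisation (8 higher), 4 with equal medians, 3 without trend, 5 without p190B replicates 1 and 3, and 4 to 9 when single arrays were left out. With the replicate block 0 were called (2287 at an unadjusted p under 0.05 in limma), and with the Gapdh covariate 0 (1803). The block left the mean difference of the 8 genes at -0.03, which ran from -0.06 to 0.01 over all settings. The excess on control replicate 5 ran from 0.27 to 0.32. The median r of the 28 pairs was 0.42 with equal medians and fell to -0.011 when control replicate 5 was left out and rose to 0.48 when control replicate 4 was, with the other arrays between these. The causes of these shifts were not tested. With 6 arrays a group, the 95% intervals of the 16 differences were the limit of what could be seen, and a missed threshold does not show equality.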
